A study of Mus musculus with 12 samples.

Results

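Tumour necrosis factor (Tnf) was followed together with its receptors Tnfrsf1a and Tnfrsf1b, its sheddase Adam17, the related ligands Ltb, Tnfsf9 and Tnfsf14, and the receptor Cd40. These 8 genes were taken by symbol from a table of 37310 genes, all 8 were found, and all 8 were among the 12917 genes with enough counts to be tested. The table holds read counts from bulk RNA-seq of 12 libraries of neutrophils (CD11b+, Ly6G+, Siglec F-, F4/80-) sorted from the hind limb marrow of C57BL/6 mice. The question behind the series is whether the transcription factor Runx1 holds back the inflammatory cytokines that neutrophils make when a Toll-like receptor is engaged. There were 3 libraries in each of 4 groups: Runx1KO cells with lipopolysaccharide (LPS, a bacterial product sensed through Tlr4), Runx1KO cells with vehicle, Control cells with LPS and Control cells with vehicle. LPS was given at 100 ng/mL, and both treatments lasted 2 h in culture after the sort.

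The sources used here do not name the part of Runx1 that was removed, the driver of recombination or the age of the mice. They do not state whether each library of a group had its own mouse either, so the spread and the p-values may be technical. The design text describes the Control material as LKS- marrow cells, a progenitor fraction, pooled from a Runx1f/f and a Runx1f/- mouse, whereas the labels give sorted neutrophils for every library. Which description holds was not settled. Summed over 12 neutrophil markers, the level was 101682 to 161543 CPM (counts scaled to library sizes of 1e+06 corrected by TMM) in the 12 libraries, against 63.6 to 252 CPM for 10 progenitor markers. Total counts were 19023610 to 26225169 per library. Runx1 itself was at 43.7 to 75.4 CPM in the 6 libraries labelled Runx1KO and at 26.1 to 56.2 CPM in the 6 labelled Control, which is not the direction the label gives. This count covers the whole gene, so reads from exons outside a deleted part enter it and it does not check the labels. In bulk RNA, fewer cells of a type and less RNA per cell cannot be told apart.

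TNF is made as a membrane protein and is released by the metalloprotease ADAM17. Soluble and membrane TNF bind TNFR1 (Tnfrsf1a), a widely expressed receptor with a death domain, and membrane TNF also engages TNFR2 (Tnfrsf1b), which recruits TRAF proteins and is found mainly on immune and endothelial cells. Both receptors lead to NF-kB, and LPS induces Tnf through NF-kB in myeloid cells, neutrophils included.

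Promoter windows are shown for 4 genes. Tnf, Ltb and Tnfrsf1b were higher and Tnfsf14 lower with LPS by at least 1 log2 unit at number 3 of both genotypes. Tnfsf9 (8.27 log2 units in Runx1KO and 4.12 in Control) and Cd40 (6.21 and 3.73) were also higher by that much, but no promoter window was found for them. Adam17 was also higher there (0.96 log2 units in Runx1KO and 1.33 in Control) and Tnfrsf1a lower (-0.51 and -0.67), and the windows of these are not shown. Tnf and Ltb are neighbours on chromosome 17. Each window holds the 250 bases before the RefSeq start of the gene on GRCm38.p6, written 5′ to 3′ on the strand of the gene. They are Tnf (chr17:35202008-35202257, minus strand), Ltb (chr17:35194257-35194506, plus strand), Tnfrsf1b (chr4:145246871-145247120, minus strand) and Tnfsf14 (chr17:57194182-57194431, minus strand). Capitals mark matches to the NF-kB type motif, GGG and CC with any 5 bases between them, on either strand, with overlapping matches merged.
Tnf: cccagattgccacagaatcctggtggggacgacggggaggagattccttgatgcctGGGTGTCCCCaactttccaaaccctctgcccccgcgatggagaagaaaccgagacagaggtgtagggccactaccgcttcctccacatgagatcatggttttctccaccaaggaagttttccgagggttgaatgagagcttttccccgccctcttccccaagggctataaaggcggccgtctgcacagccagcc
Ltb: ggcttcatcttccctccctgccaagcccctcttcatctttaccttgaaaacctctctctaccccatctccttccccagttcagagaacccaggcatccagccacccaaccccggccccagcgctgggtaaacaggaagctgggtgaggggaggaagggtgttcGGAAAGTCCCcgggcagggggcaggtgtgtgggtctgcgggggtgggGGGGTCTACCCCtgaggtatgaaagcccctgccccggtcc
Tnfrsf1b: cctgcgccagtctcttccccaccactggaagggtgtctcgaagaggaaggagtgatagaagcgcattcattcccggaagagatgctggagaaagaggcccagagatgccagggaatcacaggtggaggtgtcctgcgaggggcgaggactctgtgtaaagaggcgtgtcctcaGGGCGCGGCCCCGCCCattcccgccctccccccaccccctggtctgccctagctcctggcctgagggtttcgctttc
Tnfsf14: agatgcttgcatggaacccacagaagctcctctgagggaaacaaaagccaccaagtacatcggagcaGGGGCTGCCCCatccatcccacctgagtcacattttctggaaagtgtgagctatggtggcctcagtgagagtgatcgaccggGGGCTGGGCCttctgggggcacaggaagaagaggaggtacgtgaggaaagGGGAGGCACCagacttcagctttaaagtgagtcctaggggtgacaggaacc

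The motif was found in the windows of all 6 genes that had one, Tnf, Ltb, Tnfrsf1b, Tnfsf14, Adam17 and Tnfrsf1a. It was also found in 45.4% of 27025 promoter windows of the same length, so it is common. Whether these 6 windows differ from that share was not tested. In Tnf the match lies from -194 to -185 relative to the start, and in Ltb there are matches from -87 to -78 and between -40 and -29. In the Tnfsf14 window matches lie at 3 places, from -183 to -173, from -101 to -92 and from -51 to -42. The letters TGTGGT and TGCGGT, which RUNX proteins bind, were in 0 of the 6 windows on either strand, against 14.2% and 5.06% of all windows. An AP-1 type TGANTCA was found only in Tnfsf14 among the 6, against 6.87% of all windows, and TATAAA only in Tnf, from -29 to -24, against 13% of all windows. These are matches of letters in short windows and do not show binding.

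Tnf was at 488, 2866 and 8859 CPM in Runx1KO LPS libraries 1, 2 and 3, against 1419, 1184 and 73.0 CPM in Runx1KO vehicle libraries 1, 2 and 3. In Control it was at 1898, 1264 and 1927 CPM with LPS, against 1281, 594 and 28.2 CPM with vehicle. The highest library was Runx1KO LPS 3 and the lowest Control vehicle 3, 314-fold apart, and the ranges with LPS and with vehicle overlapped in both genotypes. In order, the group means were 4071 ± 4313 CPM in Runx1KO with LPS, 1696 ± 374 CPM in Control with LPS, 892 ± 719 CPM in Runx1KO with vehicle and 634 ± 627 CPM in Control with vehicle (SD, n = 3 each). Each neighbouring pair in that order had overlapping libraries.

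**Figure D1:**
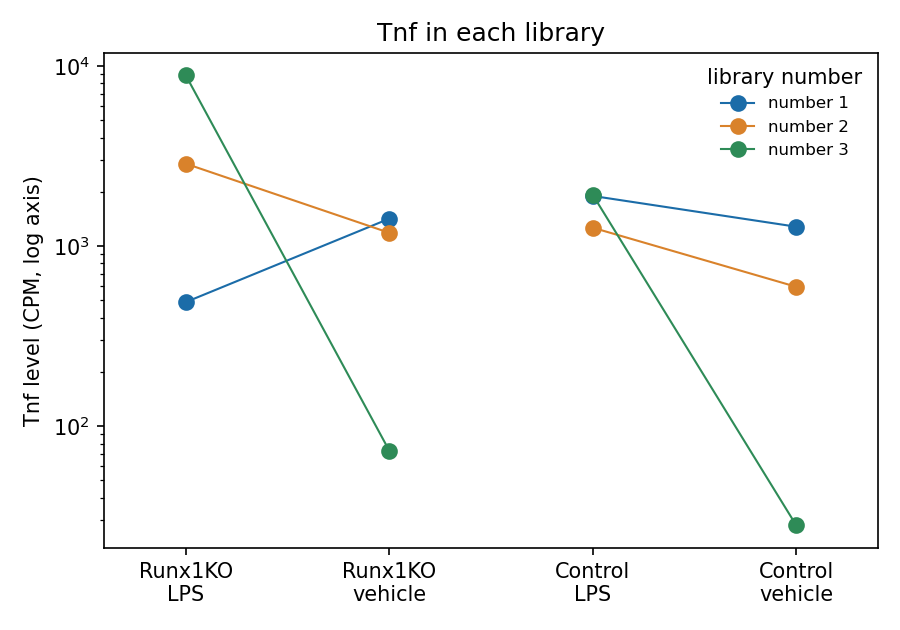
Tnf level (CPM, log axis) in each of the 12 libraries by group, with points and lines coloured by library number; a line joins the LPS and vehicle libraries of 1 genotype with the same number. Number 3 runs from the lowest vehicle values (73.0 and 28.2 CPM) to the highest LPS values (8859 and 1927 CPM), while Runx1KO number 1 is lower with LPS (488 CPM) than with vehicle (1419 CPM).

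The fitted Tnf difference with LPS was 2.19 ± 1.25 (log2 fold change ± SE) in Runx1KO and 1.42 ± 1.22 in Control (2.59 in Control with limma-voom), with Benjamini-Hochberg adjusted p over 12917 genes of 0.873 in Runx1KO and 1 in Control by the edgeR quasi-likelihood fit. Averaged over the genotypes it was 1.80 ± 0.87 (unadjusted p = 0.0614, adjusted p = 0.847, edgeR). An exact two-sided permutation test of the mean log2 CPM, whose smallest possible p at 3 against 3 is 0.1, gave p = 0.4 in Runx1KO and p = 0.2 in Control, both 0.7 after adjustment over 4 comparisons. By library number, LPS minus vehicle was -1.54, 1.27 and 6.92 log2 units at numbers 1, 2 and 3 in Runx1KO, against 0.57, 1.09 and 6.09 in Control. Tnf was thus higher with LPS in 5 of 6 same-number comparisons, and the large differences were at number 3. Without the 4 libraries numbered 3, the averaged log2 fold change was 0.55.

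No member passed the threshold of adjusted p 0.05 with LPS in either genotype. That was 0 of 8 in Runx1KO and 0 of 8 in Control by edgeR, with 0 of 8 by DESeq2 and limma-voom as well. The background is 0% of 12917 genes in Runx1KO and 0% in Control by edgeR. Before adjustment, p was under 0.05 for 2 of 8 members in Runx1KO (Tnfsf14 and Cd40) and 0 of 8 in Control, and for 676 of all genes in Runx1KO and 78 in Control. By chance alone 646 genes would be expected in each genotype. The Control count is far below that, so its p-values ran high, and the lack of calls does not show a lack of response. DESeq2 called 1 gene in Runx1KO and 0 in Control over the table. The LPS and vehicle libraries overlapped for all 8 members in both genotypes, whereas they did not overlap for 6.71% of genes in Runx1KO and 5.16% in Control. The fitted values of 6 of 8 members were above 0 in each genotype, against 52.6% of genes in Runx1KO and 46.3% in Control, with a median of 0.95 in Runx1KO and 1.01 in Control on the log2 scale (all genes, 0.028 and -0.020).

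Ltb encodes lymphotoxin beta, which anchors lymphotoxin alpha at the cell surface. It was at 30.3, 562 and 986 CPM in Runx1KO LPS libraries 1, 2 and 3, against 77.1, 381 and 151 CPM in Runx1KO vehicle libraries. In the Control libraries it was at 79.3, 592 and 752 CPM with LPS, against 76.4, 480 and 56.5 CPM with vehicle. The 4 libraries numbered 1 lay at 30.3 to 79.3 CPM and the 4 numbered 2 at 381 to 592 CPM, while at number 3 both LPS libraries (752 and 986 CPM) were above both vehicle libraries (56.5 and 151 CPM). The LPS and vehicle libraries overlapped in both genotypes. The fitted differences with LPS were 1.37 ± 1.15 in Runx1KO and 1.21 ± 1.15 in Control, with adjusted p = 0.891 and 1 by edgeR. They were 0.36 in Runx1KO and 0.28 in Control without the libraries numbered 3, and the Control value was 2.84 without Control vehicle 2.

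Tnfsf9 encodes the ligand of the costimulatory receptor Tnfrsf9. It was at 31.6, 53.6 and 38.0 CPM in Runx1KO LPS libraries, against 40.8, 31.6 and 0.0350 CPM in Runx1KO vehicle libraries 1, 2 and 3. The last of these rests on 1 count, and the ratio of Runx1KO LPS 3 to Runx1KO vehicle 3 was 1084 with a 95% counting interval of 194 to 42896. Control libraries had 18.3, 33.9 and 10.3 CPM with LPS, against 11.2, 21.5 and 0.508 CPM with vehicle. Both vehicle libraries numbered 3 were far below the other 10, and the remaining vehicle libraries lay among the LPS libraries. The fitted differences with LPS were 0.77 ± 1.30 in Runx1KO and 0.91 ± 1.31 in Control (adjusted p = 0.959 and 1, edgeR), and with limma-voom they were 3.47 in Runx1KO and 1.86 in Control, so their size depended on the method. The span of Tnfsf9 overlaps that of an antisense gene, Gm11110, which had 0 to 11 counts per library, against 1 to 1194 for Tnfsf9, and without a known strand setting their reads cannot be told apart.

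Tnfsf14 encodes LIGHT, a ligand of the lymphotoxin beta receptor and of HVEM (Tnfrsf14). It was at 7.11, 14.0 and 5.68 CPM in Runx1KO LPS libraries 1, 2 and 3, against 7.45, 16.7 and 83.1 CPM in Runx1KO vehicle libraries. Among Control libraries the level was 8.02, 19.6 and 13.2 CPM with LPS, against 6.68, 27.0 and 34.3 CPM with vehicle. Its level was lower with LPS in 5 of 6 same-number comparisons, the opposite of Tnf, and again the largest differences were at number 3, -3.85 log2 units in Runx1KO and -1.37 in Control. The fitted difference was -2.00 ± 0.82 in Runx1KO and -0.74 ± 0.79 in Control, and the value averaged over genotypes, -1.37 ± 0.57, had an unadjusted p of 0.0335 and an adjusted p of 0.842 (edgeR). Without the libraries numbered 3 the averaged value was -0.25.

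Adam17, the protease that sheds TNF and both TNF receptors, was at 35.8, 149 and 241 CPM in Runx1KO LPS libraries, against 95.4, 139 and 124 CPM in Runx1KO vehicle libraries 1, 2 and 3. Control cells had 33.8, 256 and 252 CPM with LPS, against 30.7, 213 and 100.2 CPM with vehicle. The libraries numbered 1 were the lowest of their group in all 4 groups. The fitted differences were 0.25 ± 0.81 in Runx1KO and 0.65 ± 0.81 in Control (adjusted p = 0.992 and 1, edgeR), and the Runx1KO value changed sign with the scaling, to -0.22 on library size alone. Adam17 overlaps Iah1 on the other strand, which had 139 to 262 counts per library, against 674 to 5345 for Adam17, so a part of its count cannot be assigned.

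The TNF receptors differed in how far they spread. Tnfrsf1a stayed within 2.14-fold over all 12 libraries, the narrowest range of the 8 members, while Tnfrsf1b spanned 12.1-fold. Tnfrsf1a was at 206, 182 and 273 CPM in Runx1KO LPS libraries 1, 2 and 3, against 206, 246 and 390 CPM in Runx1KO vehicle libraries. In Control it was at 193, 218 and 194 CPM with LPS, against 213, 278 and 308 CPM with vehicle. It was lower with LPS in 6 of 6 same-number comparisons, with differences from -0.67 to -0.0064 log2 units, and it was lower in all 6 on library size alone as well. Of all genes, 4.61% were lower in all 6. The fitted difference was -0.35 ± 0.29 in Runx1KO and -0.40 ± 0.29 in Control, and the averaged value of -0.38 ± 0.20 had an unadjusted p of 0.0885 and an adjusted p of 0.868 (edgeR).

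Tnfrsf1b was at 313, 2678 and 3791 CPM in Runx1KO LPS libraries 1, 2 and 3, against 929, 1859 and 323 CPM in Runx1KO vehicle libraries. In Control it was at 984, 3234 and 3082 CPM with LPS, against 747, 2255 and 357 CPM with vehicle. LPS libraries numbered 2 and 3 were the highest 4 of the 12, and Runx1KO LPS 1 was the lowest. The fitted difference was 1.12 ± 0.90 in both genotypes, with adjusted p = 0.884 in Runx1KO and 1 in Control by edgeR. Without the libraries numbered 3 it was 0.086 in Runx1KO and 0.50 in Control, and without Control vehicle 2 the Control value was 2.14. The count ratio of Tnfrsf1b to Tnfrsf1a, a measure chosen after the values were seen and not corrected for gene length, was 1.52, 14.7 and 13.9 in Runx1KO LPS libraries 1, 2 and 3, against 4.50, 7.57 and 0.830 in Runx1KO vehicle libraries. In Control the ratio was 5.11, 14.9 and 15.9 with LPS, against 3.50, 8.11 and 1.16 with vehicle, so it was higher with LPS at every number but number 1 of Runx1KO.

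Cd40, a costimulatory receptor of antigen-presenting cells whose ligand comes from activated T cells, had low counts, and in the edgeR fit its differences between LPS and vehicle were the largest in size of the 8 members, which was not so with limma-voom, where Tnf and Tnfsf9 were larger averaged over genotypes (2.40 and 2.66, against 1.68 for Cd40). It was at 0.942, 10.6 and 50.6 CPM in Runx1KO LPS libraries 1, 2 and 3, against 3.97, 5.05 and 0.596 CPM in Runx1KO vehicle libraries. In Control it was at 4.41, 6.68 and 16.2 CPM with LPS, against 3.28, 4.52 and 1.14 CPM with vehicle. Runx1KO LPS 3 stood above the others, Runx1KO LPS 1 was below both other Runx1KO LPS libraries and 5 of the 6 vehicle libraries, and the groups overlapped. The fitted difference was 2.69 ± 1.13 in Runx1KO and 1.61 ± 1.09 in Control, and 2.15 ± 0.78 averaged over genotypes (unadjusted p = 0.0177, adjusted p = 0.842, edgeR). Without the libraries numbered 3 the averaged value was 0.43. Summed over 12 monocyte and macrophage markers, the level was 999 to 3002 CPM in Runx1KO with LPS, 748 to 1407 CPM in Runx1KO with vehicle, 1639 to 2024 CPM in Control with LPS and 1458 to 1768 CPM in Control with vehicle, no marker of that list was at 0 throughout a group, and the highest sum was in Runx1KO LPS 3, the library with the highest Cd40 and Tnf. The part of such cells in these values was not tested.

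**Figure D2:**
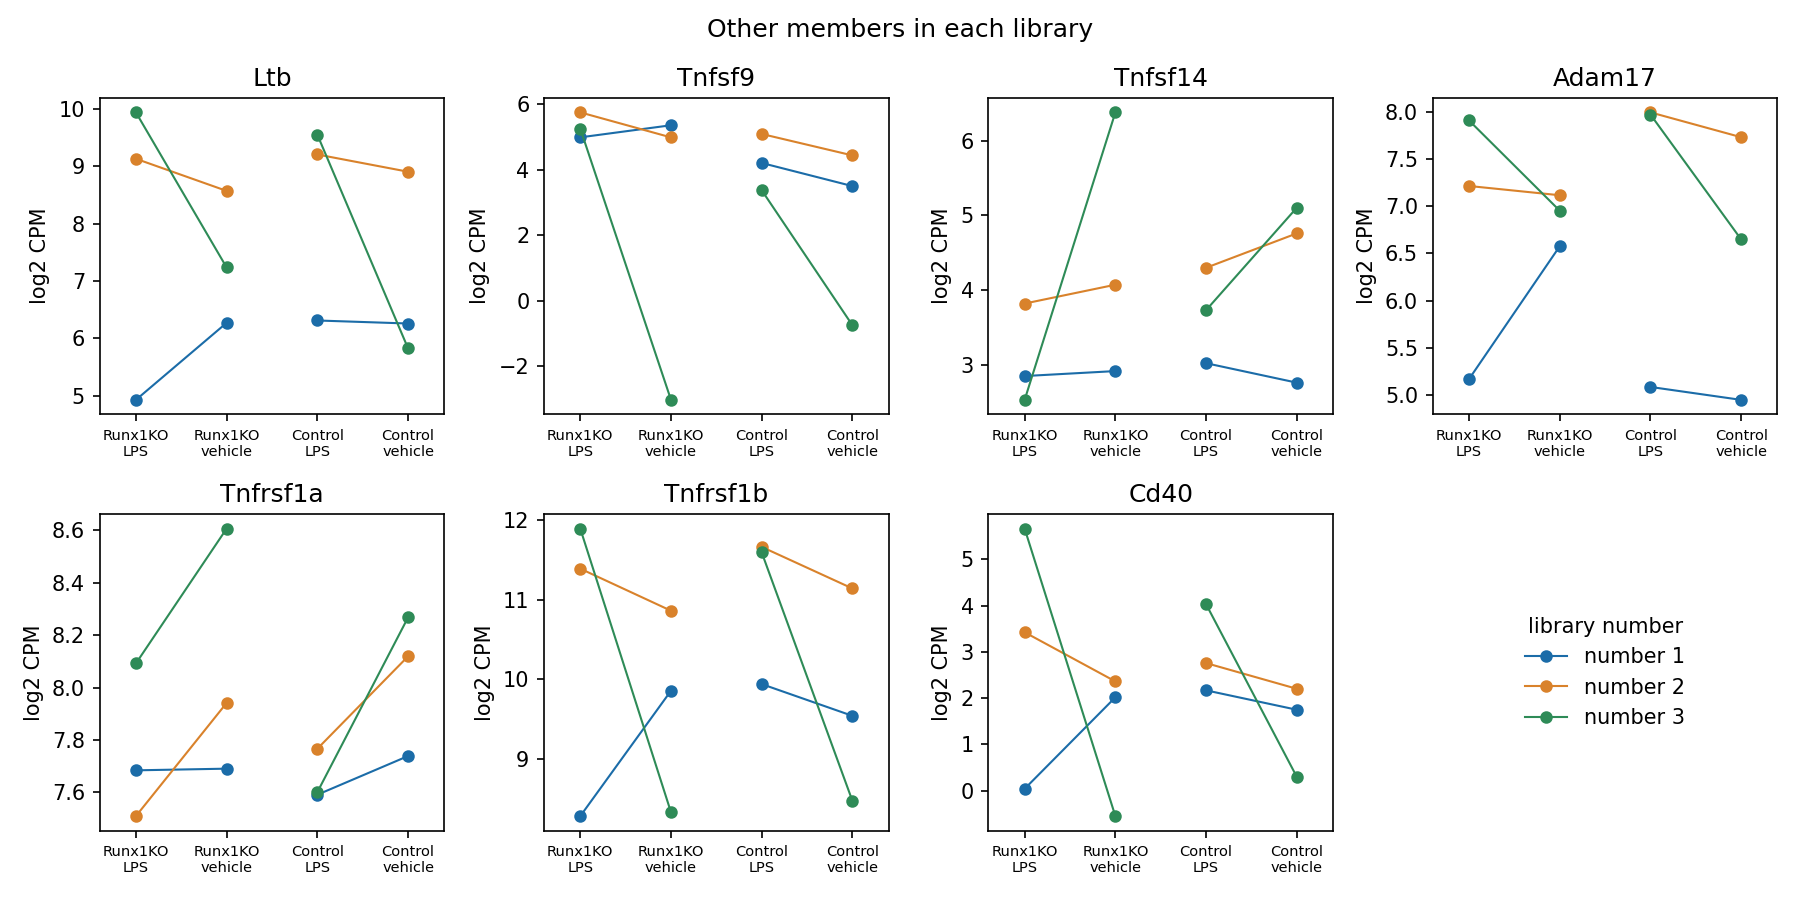
Log2 CPM (prior count 2) of the 7 other genes in each library by group, 1 panel per gene, with points coloured by library number and a line joining the LPS and vehicle libraries of 1 genotype with the same number. Lines of number 3 slope the most, upward toward LPS for Ltb, Tnfsf9, Tnfrsf1b and Cd40 and downward for Tnfsf14, while Tnfrsf1a stays within 182 to 390 CPM.

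The library number went with the size of the LPS difference across the 8 genes. At number 3, 6 of 8 members were at least 1 log2 unit apart between LPS and vehicle in Runx1KO and 7 of 8 in Control, against 33.5% of all genes in Runx1KO and 15.3% in Control. At number 2 this held for 2 members in Runx1KO and 1 in Control, against 10.2% of all genes in Runx1KO and 5.91% in Control. At number 1 it held for 5 members in Runx1KO, each lower with LPS, and 0 in Control, against 14.5% of all genes in Runx1KO and 4.60% in Control. In Runx1KO number 1 all 8 members were lower with LPS (median -1.38 log2 units), the reverse of Runx1KO number 3, where 6 were higher and Tnfsf14 and Tnfrsf1a lower (median 3.13). Control number 3 had the same 6 higher and the same 2 lower (median 3.42). The sources used here do not say what the numbers stand for.

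**Figure D3:**
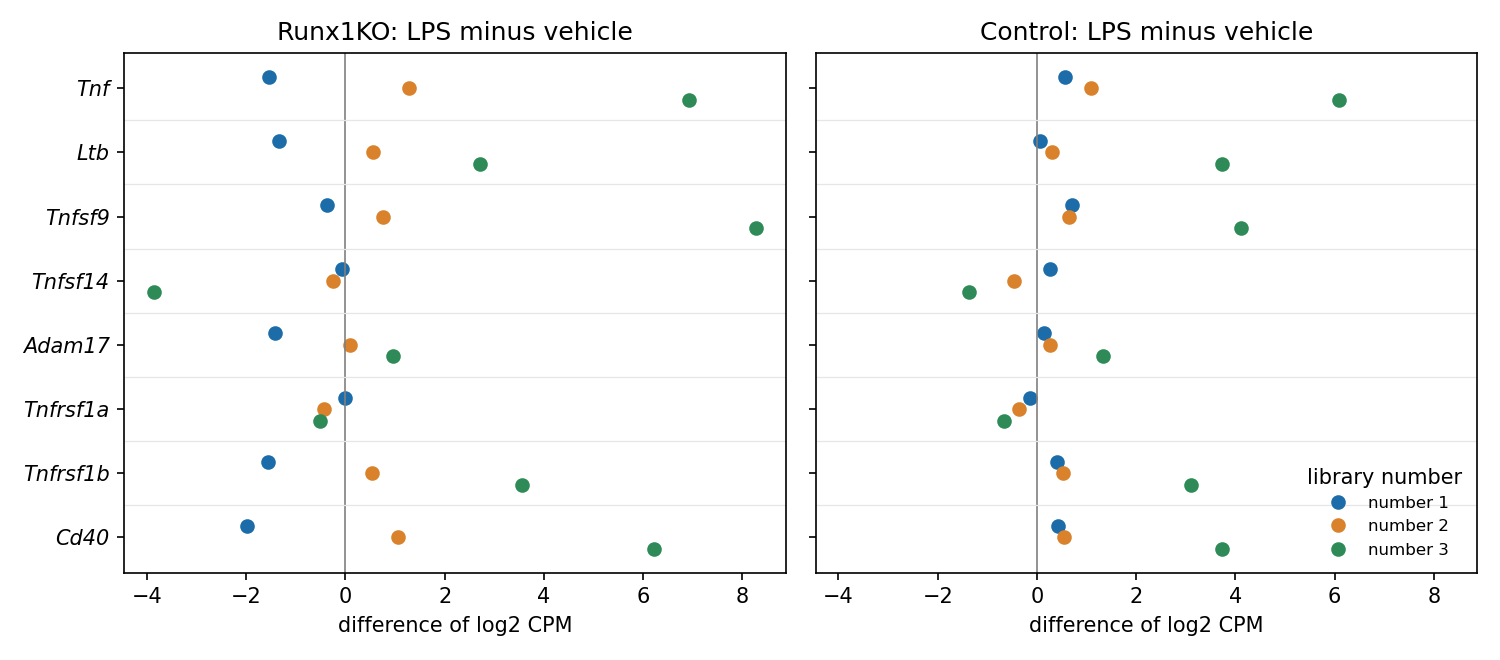
Difference of log2 CPM between the LPS and vehicle libraries with the same number (LPS minus vehicle), for each of the 8 genes, Runx1KO on the left and Control on the right, coloured by number. Number 3 reaches 6.92 for Tnf in Runx1KO and 6.09 in Control, Runx1KO number 1 lies below 0 for all 8 genes, and the Tnfsf9 point at the far right rests on 1 count in the vehicle library.

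With LPS, no member differed between the genotypes by the test: 0 of 8 were called, against 0.921% of the 12917 genes (119 genes, edgeR), and no member reached an unadjusted p under 0.05. DESeq2 and limma-voom also called 0 of 8, while over the table DESeq2 called 401 genes and a fit with the library number as a block called 302. Tnf, the gene most tied to the study's question, averaged 4071 ± 4313 CPM in Runx1KO and 1696 ± 374 CPM in Control (SD, n = 3 each), with a fitted difference of 1.26 ± 1.22 and an adjusted p of 0.836 by edgeR. The exact permutation test gave p = 0.7 (adjusted p = 0.7). By number, libraries labelled Runx1KO minus Control were -1.96, 1.18 and 2.20 log2 units apart, so the Control values lay inside the range of the Runx1KO values. The fitted difference rested on Runx1KO LPS 3: without it the value was -0.021, and without all libraries numbered 3 it was 0.11. The other 7 genes had fitted differences from -0.60 ± 0.80 (Tnfsf14) to 1.18 ± 1.07 (Cd40), with Tnfsf9 at 0.98 ± 1.30, Tnfrsf1a at 0.13 ± 0.29 and Tnfrsf1b at -0.11 ± 0.89. Libraries of the genotypes overlapped for all 8, whereas they did not overlap for 13.3% of genes.

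With vehicle, 0 of 8 members were called, against 0.952% of genes (123 genes, edgeR), and 0 had an unadjusted p under 0.05; DESeq2 and limma-voom called 0 of 8 too. Over the table DESeq2 called 386 genes and the fit with the number as a block 315. Tnf averaged 892 ± 719 CPM in Runx1KO and 634 ± 627 CPM in Control (SD, n = 3 each), with a fitted difference of 0.49 ± 1.20 and an adjusted p of 1 by edgeR. By number, Tnf was higher in the library labelled Runx1KO at each of the 3 numbers, by 0.15, 1.00 and 1.37 log2 units. The exact permutation test of the group means, which does not use the numbers, gave p = 0.6 (adjusted p = 0.7). The fitted differences of the other 7 genes ran from -0.11 ± 0.89 (Tnfrsf1b) to 1.12 ± 1.31 (Tnfsf9). All 8 overlapped between the genotypes, while 13.2% of genes did not.

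The difference between the LPS responses of the genotypes, which addresses the study's question most directly, was not called for any member: 0 of 8 by edgeR, DESeq2 and limma-voom, with 0 of 8 at an unadjusted p under 0.05, against 0% of genes called by edgeR and 77 genes at an unadjusted p under 0.05. By chance alone 646 genes would be expected there, so the lack of calls does not show that the responses were alike. The Tnf response in Runx1KO exceeded that in Control by 0.77 ± 1.70 log2 units (adjusted p = 1.0, edgeR), and the sign of this value was not stable. It was -0.37 with limma-voom, -0.52 without Runx1KO LPS 3, -0.26 without Control vehicle 1 and -0.41 without all libraries numbered 3. For the other genes the differences ran from -1.26 ± 1.12 (Tnfsf14) to 1.08 ± 1.51 (Cd40), and that of Tnfrsf1a was 0.053 ± 0.41 and that of Tnfrsf1b 0.0040 ± 1.26.

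**Figure D4:**
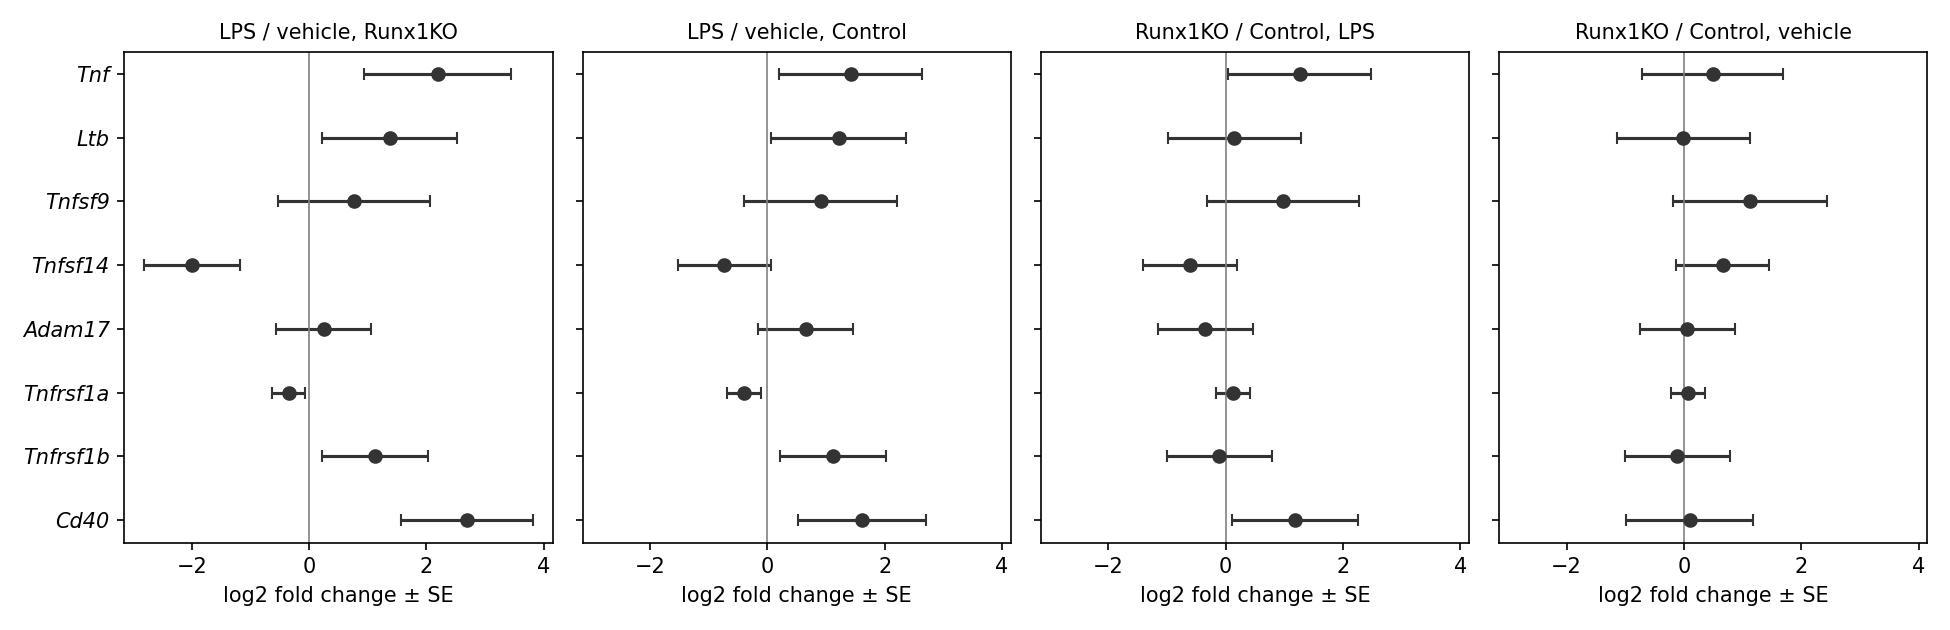
Fitted log2 fold changes of the 8 genes (points) with their SE (bars) in 4 comparisons, LPS over vehicle in Runx1KO and in Control, then Runx1KO over Control with LPS and with vehicle. Tnf and Cd40 lie at 2.19 and 2.69 for LPS in Runx1KO with SEs above 1, Tnfrsf1a has the shortest bars (0.29), and no point passed the test.

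The level of Tnf was set against 7064 tested genes by Pearson correlation of log2 CPM over the 12 libraries. These had a symbol and a mean log2 CPM of at least 2. Predicted genes (Gm and Rik names) and immunoglobulin and T cell receptor segments were left out. The 8 genes most like it were Marcksl1 (r = 0.978), Dusp16 (r = 0.976), Il23a (r = 0.974), Casp4 (r = 0.967), Psd (r = 0.965), Icam1 (r = 0.963), Il1a (r = 0.962) and Junb (r = 0.959). Il23a and Il1a encode cytokines and Icam1 an adhesion molecule. The points share groups, library numbers and scaling, and only 2 of these 8 were among the 8 most like Tnf by Spearman correlation. The 3 genes most like Cd40 were Nlrp3, an inflammasome sensor (r = 0.991), Best1 (r = 0.973) and Rab11fip1 (r = 0.965), and those most like Tnfrsf1b were Mvd (r = 0.981), Adora2b (r = 0.979) and N4bp1 (r = 0.977). Ltb was most like Sema4d (r = 0.981), Icosl (r = 0.980) and Rilpl2 (r = 0.975). Tnfsf9 was most like Nfkbiz (r = 0.966), Dusp2 (r = 0.950) and Tnfaip3 (r = 0.944). Adam17 was most like Il16 (r = 0.968), Lrp10 (r = 0.958) and Pcnx (r = 0.955). Tnfsf14 was most like Tmem184b (r = 0.958), Setd7 (r = 0.953) and Zbtb42 (r = 0.945), and Tnfrsf1a, with the lowest values, like Cdk9 (r = 0.954), Aqp9 (r = 0.906) and Plin2 (r = 0.887). Among the members, Tnfrsf1b went with Cd40 (r = 0.911) and Ltb (r = 0.902), and Tnf with Cd40 (r = 0.850), while Tnf and Tnfsf14 were opposed (r = -0.747).

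In the wider family, 17 of 18 listed TNF superfamily ligands were in the table and 8 were tested. Of these, 1 was called, Tnfsf13b, which encodes BAFF, a survival factor of B cells and no member of the set above. With LPS, Tnfsf13b was at 6.31 ± 1.44 CPM in libraries labelled Runx1KO and 33.2 ± 9.48 CPM in Control (SD, n = 3 each), a log2 fold change of -2.39 ± 0.33 with an adjusted p of 0.00694 by edgeR. With vehicle it was at 6.18 ± 1.28 CPM in libraries labelled Runx1KO and 29.7 ± 9.01 CPM in Control, a log2 fold change of -2.27 ± 0.32 with an adjusted p of 0.00612 by edgeR. The highest of the 6 Runx1KO libraries was at 7.86 CPM and the lowest of the 6 Control libraries at 21.8 CPM, so the genotypes did not overlap. Of all 12917 genes, 0.921% were called between the genotypes with LPS and 0.952% with vehicle (edgeR). Within a treatment, 13.3% of genes did not overlap between the genotypes with LPS and 13.2% with vehicle. The share over both treatments together was not computed. With the number as a block the adjusted p was 0.00586 with LPS and 0.00676 with vehicle. Leaving out any 1 library kept the call (adjusted p 0.00876 to 0.0383), and leaving out all libraries of 1 number, which leaves 2 against 2, ended it for each number (0.111, 0.0886 and 0.206 with LPS and 0.189, 0.0989 and 0.170 with vehicle, without numbers 1, 2 and 3).

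Summed markers of some other cells also went with the genotype label. Those of dendritic cells, eosinophils and progenitors overlapped between the genotypes with LPS and with vehicle. Those of monocytes and macrophages and those of neutrophils overlapped with LPS but not with vehicle. With vehicle the 12 monocyte and macrophage markers summed to 748 to 1407 CPM in Runx1KO and 1458 to 1768 CPM in Control. The 12 neutrophil markers summed to 101682 to 131868 CPM in Runx1KO and 131888 to 144050 CPM in Control. Single markers of both lists went both ways. The summed level of 12 B lineage markers was 16.5 to 26.5 CPM in Runx1KO and 29.1 to 76.0 CPM in Control with LPS, and 12.7 to 17.5 CPM in Runx1KO and 25.3 to 56.6 CPM in Control with vehicle, and Ms4a1, which encodes the B cell antigen CD20, was at 0 counts in all Runx1KO vehicle libraries. For 12 T and NK cell markers it was 7.06 to 12.4 CPM in Runx1KO and 38.6 to 55.0 CPM in Control with LPS. Most of this was Cd3d, with a mean of 1.62 CPM in Runx1KO and 40.1 CPM in Control. The other markers of that list went both ways, and Nkg7 was at 3.38 CPM in Runx1KO and 2.69 CPM in Control. For 10 megakaryocyte and platelet markers it was 44.0 to 59.1 CPM in Runx1KO and 30.9 to 35.4 CPM in Control with LPS, and for 7 basophil and mast cell markers, of which 3 were at 0 in Runx1KO, 1.26 to 2.92 CPM in Runx1KO and 3.74 to 26.0 CPM in Control. Single markers could go against the sum of their list. With LPS, Itgb3 of the megakaryocyte list had a mean of 15.1 CPM in Runx1KO and 28.8 CPM in Control. Vpreb1 of the B lineage list had 1.19 and 0.862 CPM, and Gata2 of the basophil list 1.93 and 0.920 CPM. The part of such cells in the Tnfsf13b result was not tested.

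With LPS, 0 of 8 ligands, 0 of 22 receptors, 0 of 30 genes of the receptor signalling complex and 0 of 6 shedding genes were called by edgeR in the values averaged over genotypes, as were 0% of all genes. Before adjustment, p was under 0.05 for 2 ligands, 3 receptors, 2 signalling genes and 0 shedding genes. The same held for 749 of all genes, where 646 would be expected by chance. Over the table DESeq2 called 2 genes and limma-voom 0. Averaged over genotypes, the largest fitted ligand values were 2.99 ± 1.15 for Lta, the soluble partner of Ltb, then 1.80 for Tnf and -1.37 for Tnfsf14. Lta was at 15.0 ± 18.3 CPM in Runx1KO and 14.9 ± 11.6 CPM in Control with LPS, and at 1.53 ± 1.99 CPM in Runx1KO and 2.31 ± 2.34 CPM in Control with vehicle (SD, n = 3 each). Its counts in Runx1KO LPS libraries 1, 2 and 3 were 0, 212 and 629, so libraries of 1 group differed widely. Among receptors the largest were Cd40, Tnfrsf8 and, at 1.24 ± 0.66, the death receptor Fas. In the signalling complex they were Traf1, an adaptor that binds TNFR2, at 1.97 ± 0.92, Cflar, an inhibitor of caspase-8 activation, at 1.46 ± 0.58, and Tank, a TRAF-binding protein, at 1.20 ± 0.52. Each of these had an adjusted p between 0.842 and 0.898 by edgeR. Furin, which activates ADAM proteases, had the largest value of the shedding list, 0.58 ± 0.51. The list medians were 0.70 for ligands, 0.05 for receptors, 0.13 for the signalling complex and -0.20 for shedding, against -0.00094 over all genes.

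Between the genotypes no gene of these lists but Tnfsf13b was called by edgeR. With vehicle the largest uncalled values among receptors were 2.12 ± 0.61 for Tnfrsf10b, the mouse TRAIL receptor (adjusted p = 0.176), -2.03 ± 0.60 for Tnfrsf13c, the BAFF receptor of B cells (adjusted p = 0.192), and -1.24 ± 0.38 for Tnfrsf14 (adjusted p = 0.217, edgeR). Tnfrsf13c was at 0.460 ± 0.320 CPM in libraries labelled Runx1KO and 1.89 ± 0.658 CPM in Control with vehicle (SD, n = 3 each). Timp3, an inhibitor of ADAM17, was at 1.32 ± 0.655 CPM in libraries labelled Runx1KO and 0.0705 ± 0.122 CPM in Control with vehicle, with an adjusted p of 0.140 by edgeR. With LPS the largest receptor values were -2.19 ± 0.90 for Tnfrsf4, 1.92 ± 0.61 for Tnfrsf10b and -1.70 ± 0.59 for Tnfrsf13c (adjusted p = 0.420, 0.248 and 0.306, edgeR). Tnfrsf4 was low there, at a mean of 0.134 CPM in Runx1KO and 0.613 CPM in Control. Tnfrsf14 was at -1.51 ± 0.38 and Timp3 at 2.61 ± 1.12 with LPS (adjusted p = 0.108 and 0.447, edgeR).

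**Figure D5:**
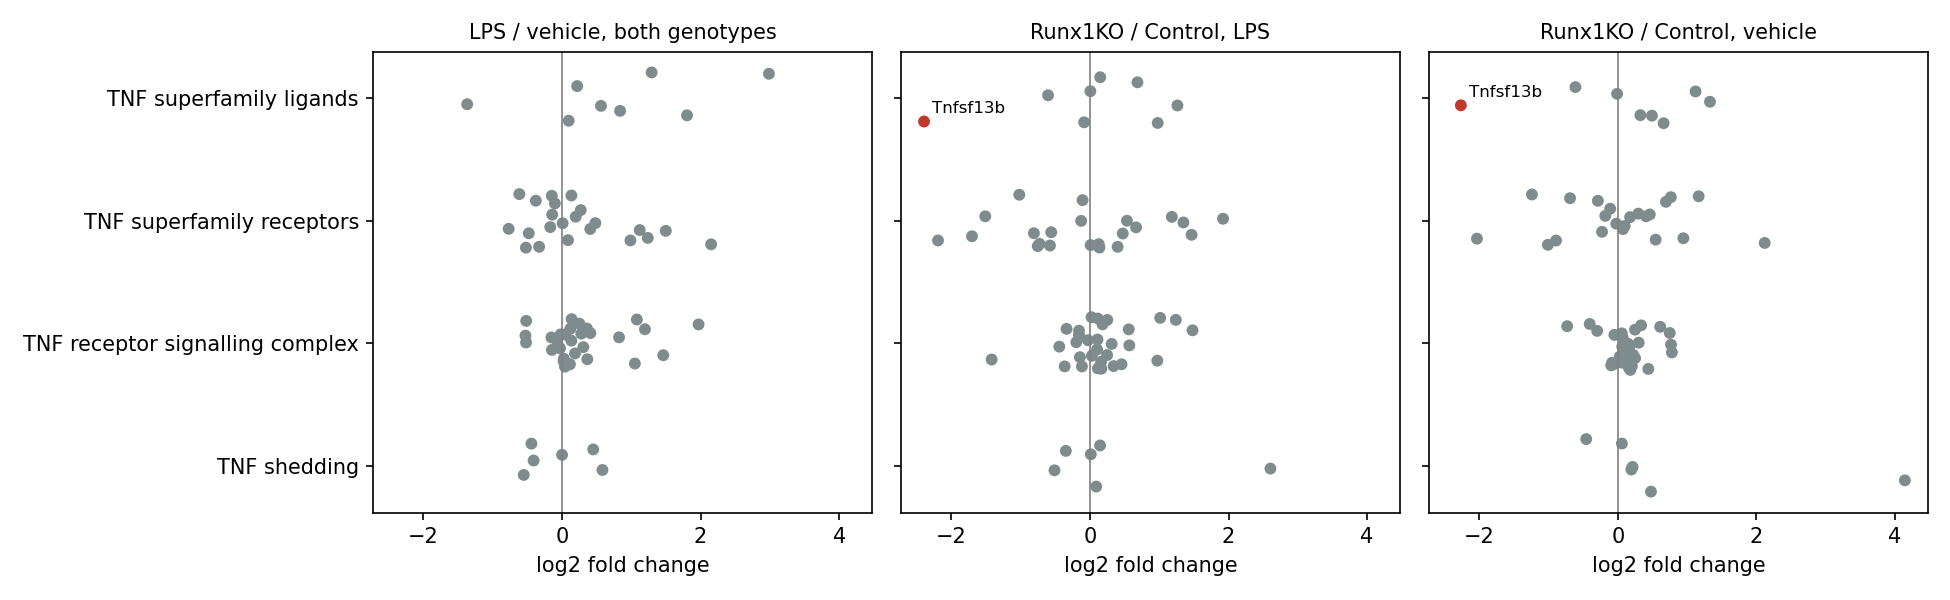
Fitted log2 fold changes of the tested genes of 4 TNF pathway lists (8 ligands, 22 receptors, 30 signalling genes, 6 shedding genes; members of the set included), 1 point per gene, for LPS over vehicle averaged over genotypes and for Runx1KO over Control with LPS and with vehicle. Tnfsf13b, the red point, was called in both genotype comparisons (-2.39 and -2.27), and all other points did not pass the test.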

How the data were processed

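An ultra-low input kit was used for the libraries, per the labels' protocols. STAR 2.6.0a, mm9 and featureCounts are named as aligner, build and counter, per the submitters' processing notes; the sources used here do not name the version of featureCounts, its annotation, its strand setting or any filter on reads. The deposited counts are whole numbers per gene that were not normalized. The 12 columns were assigned to samples by the initials and number in the titles, and 0 columns were left over. Symbols were matched to 32620 of 37310 identifiers. No 2 libraries of a group were alike within sampling noise: the lowest chi-square was 68.3 for each degree of freedom.

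In R 4.3.3, filterByExpr kept 12917 genes, which were scaled by TMM and fitted by the quasi-likelihood method of edgeR 4.0.16, the 4 groups sharing 1 model. Adjustment was by Benjamini-Hochberg over all 12917 genes, with a threshold of 0.05, and each SE belongs to a log2 fold change of that model. Log2 CPM used a prior count of 2. The alternatives were DESeq2 1.42.0, limma-voom (limma 3.58.1), other scalings, no filter, a block for the library number, and leaving out libraries. The fit was also run on simulated counts with the same spread setting for every gene and no effect of library number. The real libraries differed by number, so that run does not show how the fit behaves on them. Counting intervals cover counting error only, since no molecular identifiers are described.

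The titles number the libraries 1 to 3. Deviations from the group means correlated between same-numbered libraries for LPS and vehicle in Control (r = 0.394 to 0.667), for the genotypes with LPS (r = 0.429 to 0.565) and for the genotypes with vehicle (r = 0.374 to 0.479), so a block for the number is also given for these comparisons. The edgeR model described above and the exact permutation tests do not use the number. The members, gene lists and tests were chosen with earlier results of these data known. The genes named are the 8 members, any called gene of the 4 pathway lists or else up to 3 with the largest fitted values per list, and the genes most like each member. Promoters are those of RefSeq on GRCm38.p6, a later assembly than the mm9 of the alignment.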

Additional observations from a re-analysis of the deposited data

How the results depend on the processing

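No member was called under any scaling, tool, filter or left-out library tried, and Tnfsf13b was called with each scaling, tool and filter and with the block. DESeq2 called more genes over the table: 1 with LPS in Runx1KO, 2 with LPS averaged over genotypes, 401 between genotypes with LPS and 386 with vehicle. The genes called without single libraries or whole numbers ranged from 3 to 135 between genotypes with LPS and from 1 to 70 with vehicle, the lowest counts coming from leaving out a whole number, which leaves 2 against 2. With 1 library left out the counts were 47 to 70 with vehicle, and with LPS 135 without Runx1KO LPS 1 and 49 to 66 without any other library. By Spearman correlation 2 of the 8 genes most like Tnf were the same. With no TMM factors, the all-gene median shifted to -0.28 (log2) for LPS in Runx1KO, -0.14 in Control, -0.21 averaged and -0.15 for the difference of responses, so the LPS values of single genes are relative to the TMM scale. With counts as low as 1 for Tnfsf9, depth limits the low libraries of Tnfsf9 and Cd40.

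In Runx1KO the LPS and vehicle libraries with the same number correlated in their deviations by r = 0.314 at number 1 and 0.537 at number 2. At number 3 it was r = 0.0058, so the number did not go with likeness between these libraries throughout. The block for the number called 302 genes between genotypes with LPS and 315 with vehicle, called no member and kept the call of Tnfsf13b. With the block, Tnfsf9 was 1.82 and Ltb 0.89 for LPS in Runx1KO, Tnfsf9 was 1.50 for LPS in Control, and averaged over genotypes Tnf (2.20) was above Cd40 (1.67). Adam17 turned to -0.25 for LPS in Runx1KO, Ltb to -0.044 between genotypes with LPS, Ltb to 0.037 and Tnfrsf1b to 0.028 between genotypes with vehicle, and in the difference of responses Ltb turned to -0.082, Tnfsf9 to 0.32 and Tnfrsf1b to -0.21.

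Other uncalled log2 fold changes turned in sign or moved by over 1.5 times, and the cause was not tested. On library size alone, Adam17 was -0.22, Tnfrsf1a -0.72, Tnfrsf1b 0.70, Tnfsf9 0.47 and Ltb 0.91 for LPS in Runx1KO, Ltb -0.12 and Tnfrsf1a -0.016 between genotypes with LPS, Ltb 0.10 with vehicle, and Ltb -0.23, Tnfrsf1a -0.19 and Tnfrsf1b -0.34 in the difference of responses. With limma-voom, Adam17 was -0.11, Ltb 0.65, Tnfsf9 3.47 and Cd40 1.77 for LPS in Runx1KO, Ltb -0.34 and Cd40 -0.063 between genotypes with LPS, Ltb 0.37, Tnfsf9 -0.49 and Cd40 -0.23 with vehicle, and Tnf -0.37, Ltb -0.71, Tnfsf9 1.60 and Tnfrsf1b -0.51 in the difference of responses. Between genotypes with vehicle Ltb was 0.019 with RLE size factors, with DESeq2 and with no filter. In the difference of responses Tnfrsf1b was -0.0013 with RLE size factors and with DESeq2, and -0.058 with no filter.

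Leaving out libraries gave the following ranges. With LPS in Runx1KO, where these kept their sign, Tnf ranged from 0.35 to 3.17, Ltb from 0.36 to 2.20, Tnfsf9 from 0.18 to 1.50, Tnfsf14 from -2.82 to -0.21, Tnfrsf1b from 0.086 to 1.85 and Cd40 from 0.34 to 3.50. In Control, Tnf ranged from 0.75 to 2.44, Ltb from 0.28 to 2.84, Tnfsf9 from 0.35 to 1.83, Tnfsf14 from -1.17 to -0.28, Tnfrsf1b from 0.50 to 2.14 and Cd40 from 0.51 to 2.22. The other ranges are those where a sign turned or a call ended. For LPS, Adam17 ranged from -0.37 to 0.70 in Runx1KO and from -0.049 to 0.85 averaged over genotypes. Between genotypes with LPS, Tnf ranged from -0.021 to 1.86, Ltb from -0.69 to 0.70, Adam17 from -0.97 to 0.11, Tnfrsf1a from -0.070 to 0.31, Tnfrsf1b from -0.71 to 0.41, Cd40 from -0.66 to 1.89 and Tnfsf13b from -2.79 to -2.17. With vehicle, Tnf ranged from -0.074 to 1.52, Ltb from -0.84 to 1.61, Tnfsf14 from -0.91 to 1.15, Adam17 from -0.39 to 0.87, Tnfrsf1a from -0.24 to 0.25, Tnfrsf1b from -0.84 to 0.91, Cd40 from -0.39 to 0.59 and Tnfsf13b from -2.59 to -1.81. In the difference of responses, Tnf ranged from -0.52 to 1.33, Ltb from -1.46 to 0.99, Tnfsf9 from -1.07 to 0.47, Tnfsf14 from -1.87 to 0.30, Adam17 from -1.22 to 0.050, Tnfrsf1a from -0.14 to 0.37, Tnfrsf1b from -1.02 to 0.73 and Cd40 from -0.76 to 1.75.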
